A study of Mus musculus with 16 samples.

Results

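The nuclear genes that encode the subunits of oxidative phosphorylation were followed in mouse liver 12 h after partial hepatectomy (PHx), the surgical removal of part of the liver, or after a sham operation. Members were the genes whose annotated symbol begins with Nduf, Uqcr, Cox4 to Cox8 or Atp5, or is Sdha, Sdhb, Sdhc or Sdhd, with pseudogene and antisense symbols left out. There were 91 such genes among the 30142 genes measured. Complex I had 36, complex II had 4, complex III had 8, complex IV had 18 and complex V had 17. The remaining 8 were 7 assembly factors of complex I (Ndufaf1 to Ndufaf7) and Dmac2, a gene annotated on the array as Atp5sl, whose product is an assembly factor of complex I.

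Total RNA of whole liver was hybridised to 16 Affymetrix arrays, 4 for each of 4 groups: sham and PHx in Ppara fl/fl mice, and sham and PHx in PparaΔHep mice (Ppara△Hep in the labels). The Ppara fl/fl mice carry the floxed Ppara alleles without deletion and served as the wild type. In the PparaΔHep mice PPARα, a nuclear receptor that switches on genes of fatty acid oxidation, was disrupted in hepatocytes only, so Ppara in the other liver cells is not targeted. Neither the labels nor the files name the Cre driver, the strain, the age or the sex of the animals. It is also not stated whether every array comes from its own animal, and p-values therefore reflect only the scatter among these arrays, which may be technical. The time of 12 h falls in the period when, by the labels, the remaining liver stores fat.

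Oxidative phosphorylation takes place in the inner mitochondrial membrane. Complexes I and II pass electrons from NADH and succinate to ubiquinone, complex III passes them to cytochrome c, and complex IV passes them to oxygen. Complexes I, III and IV pump protons meanwhile, and complex V, the ATP synthase, makes ATP from the proton gradient. Nearly all subunits are encoded in the nucleus and imported, while a small number of core subunits come from mitochondrial DNA. Hepatocytes are rich in mitochondria and rely on this system for gluconeogenesis, urea synthesis and growth after resection.

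All values are log2 expression levels made by the authors with robust multi-array averaging (RMA), on which equal differences are equal ratios. Differences were tested with limma across the 30142 genes with Benjamini-Hochberg adjustment, and "lower" or "higher" below means an adjusted p under 0.05. Where a bracket holds a pair of differences, both are log2 differences, PHx minus sham, that of fl/fl mice before that of PparaΔHep mice. Levels of different genes are not compared, since probes differ in their response.

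After PHx many genes of oxidative phosphorylation were slightly lower than after sham, in both genotypes. In fl/fl mice 34 of 91 were lower and 1, Atp5g3, was higher, where 20.8% of all 30142 genes were lower and 11.9% were higher. In PparaΔHep mice 43 of 91 were lower and 0 were higher, where 17.5% of all genes were lower and 14.8% were higher. The median difference of the 91 genes was −0.18 in fl/fl mice and −0.21 in PparaΔHep mice, beside −0.04 and 0.01 over all genes. The lower members stood at 0.672 to 0.904 of their sham level in fl/fl mice and at 0.596 to 0.903 in PparaΔHep mice. None fell to a log2 difference beyond −1. After cyclic loess normalization of the arrays 12 members were lower and 3 higher in fl/fl mice, and 24 lower and 0 higher in PparaΔHep mice, while subtraction of array medians gave 60 and 74 lower, so the counts rest on how the arrays are scaled. The median of the members was −0.06 in fl/fl and −0.13 in PparaΔHep mice after cyclic loess, beside −0.04 and −0.02 over all genes. In fl/fl mice 4 of the members that fell with the deposited values were beyond −0.5, and in PparaΔHep mice 7 were. The share of members at or below −0.5 was 0.044 and 0.077, near the 0.058 and 0.068 of all genes. It was 0.157 and 0.188 for genes with a mean level of at least 4.

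Most of these genes are well expressed in liver, and the share of genes called lower after PHx depended on the level. Among the 9294 genes with a mean level of at least 4, 36.1% were lower in fl/fl mice and their median difference was −0.16. The 77 members above that level included 27 that were lower (35.1%), and their median was also −0.16. In fl/fl mice the share of these members that fell was therefore near that of all genes above that level, which were not matched to the members in level. In PparaΔHep mice 40 of the 77 were lower (51.9%), beside 39.8% of the 9294 genes, and the medians were −0.25 and −0.19.

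**Figure D1:**
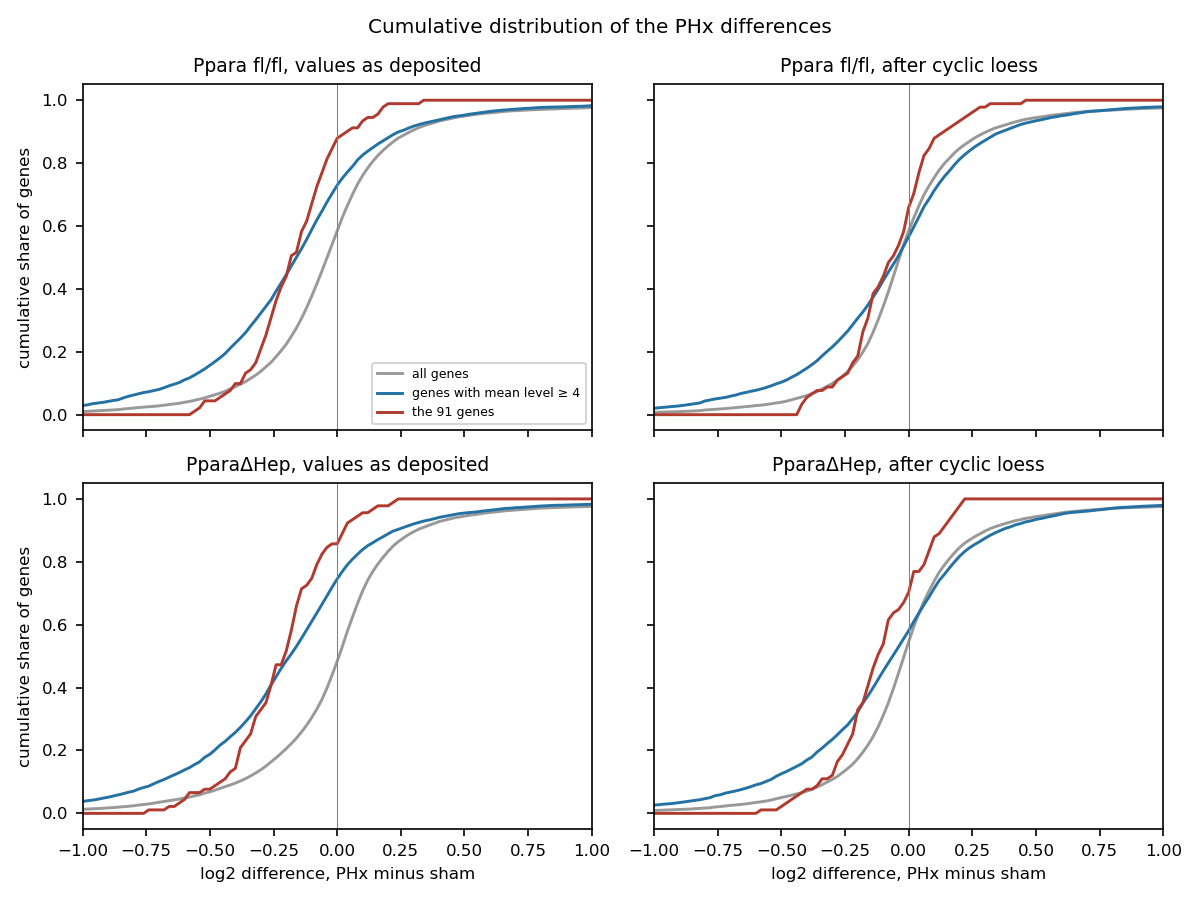
Cumulative share of genes (y axis) at or below each PHx against sham log2 difference (x axis) for all 30142 genes, for the 9294 genes with a mean level of at least 4 and for the 91 members, by genotype, with the deposited values and after cyclic loess. With the deposited values the members' curve runs from −0.57 to 0.32 in fl/fl and from −0.75 to 0.24 in PparaΔHep mice, a narrower span than the others have, and its middle lies left of that of all genes and near that of genes with a mean level of at least 4.

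The arrays of a group differed among themselves. The mean level over all 91 genes was 6.01, 5.98, 6.04 and 6.10 in sham fl/fl livers and 5.78, 5.82, 5.83 and 6.00 in PHx fl/fl livers. In PparaΔHep mice it was 5.93, 5.96, 6.04 and 6.06 after sham and 5.82, 5.81, 5.68 and 5.78 after PHx. Taken gene by gene, all PHx arrays lay below all sham arrays for 26 members in fl/fl mice (19.9% of all genes) and 45 in PparaΔHep mice (16.2%), and above them for 1 (12% of all genes) and 0 (15.8%). In the mean level the 2 PparaΔHep groups did not overlap, whereas array 4 of the PHx fl/fl group lay inside the range of the sham fl/fl arrays. That array was the highest of its group for 62 of the 91 genes, and array 3 of the PHx PparaΔHep group was the lowest of its group for 51. Without array 4 of PHx fl/fl, 51 members were lower in fl/fl mice instead of 34 and the median was −0.23.

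**Figure D2:**
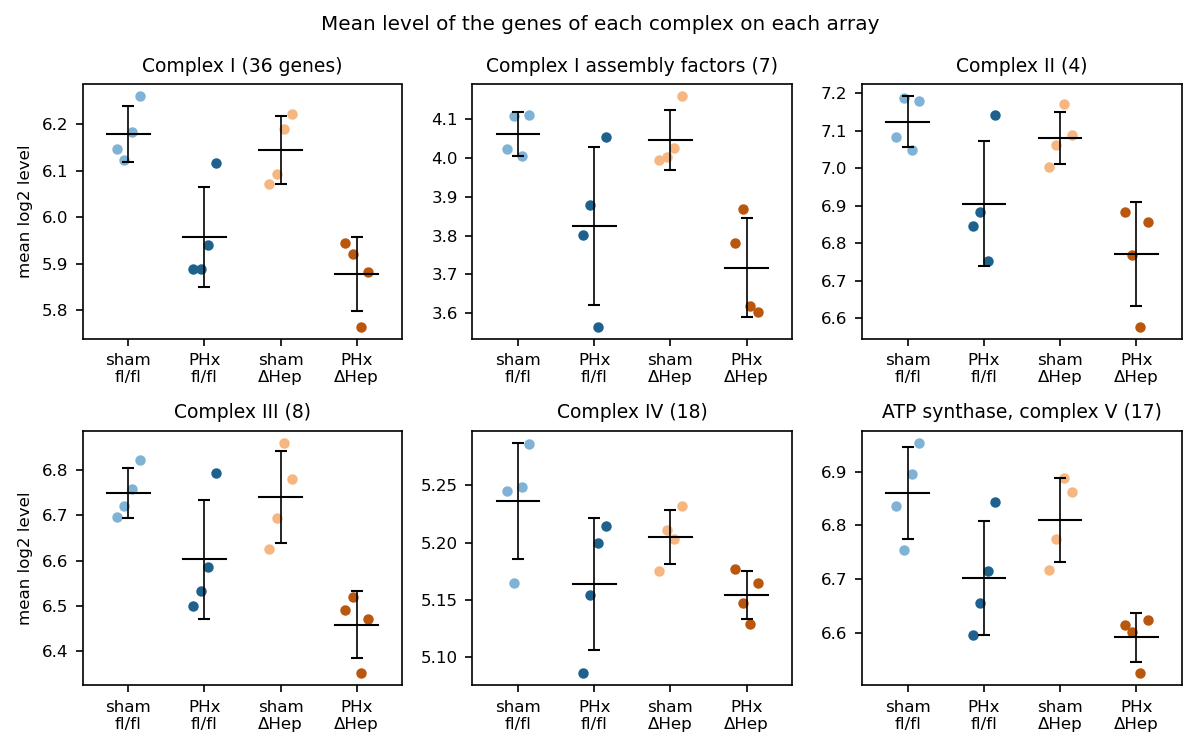
Mean log2 level of the members of each complex (y axis) on each array, by group (x axis), with dots for the 16 arrays and lines for the group mean ± SD of 4 arrays. The mean over all 91 genes was 5.78 to 6.00 on the PHx fl/fl arrays and 5.98 to 6.10 on the sham fl/fl arrays, so array 4 of PHx fl/fl reached the sham range.

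Several measures that are not expression of these genes moved with the operation. The array's positive controls had medians of 5.82 to 6.06 on the sham arrays and 5.30 to 5.66 on the PHx arrays, and its background probes had medians of 1.19 to 1.29 and 0.97 to 1.09. Probe sets of chromosome Y had medians of 1.70 to 1.87 after sham and 4.99 to 5.49 after PHx. Of single Y genes, Kdm5d had levels of 3.90 to 4.16 after sham and 3.44 to 3.90 after PHx, and Sry had 4.34 to 4.72 and 4.62 to 4.86, so neither rose by as much as that median, which is no reading of the animals' sex. The median of genes with a mean level of at least 4 was 5.38 to 5.50 after sham and 5.17 to 5.29 after PHx. The median of all probe sets went the other way, from 2.02 to 2.08 after sham to 2.14 to 2.22 after PHx. Negative controls overlapped, with medians of 1.81 to 2.01 after sham and 1.94 to 2.12 after PHx. The positive controls, the background probes, the chromosome Y median and both medians of expression each separated all sham from all PHx arrays. Differences of the operation and of these measures therefore cannot be told apart. Hepatocyte markers were high in every group, with a mean level of 10.69 to 10.89 over arrays for 9 markers, of which 1 (Apob) was lower after PHx. Markers of Kupffer cells were lower for 3 of 7 in fl/fl and 6 of 7 in PparaΔHep mice, with mean levels of 5.10 to 5.68 on sham fl/fl, 4.71 to 5.16 on PHx fl/fl, 5.26 to 5.80 on sham PparaΔHep and 4.46 to 5.14 on PHx PparaΔHep arrays. Those of stellate cells were lower for 2 and 3 of 6, with mean levels of 4.73 to 4.87, 4.42 to 4.59, 4.73 to 5.02 and 4.16 to 4.62 in the same order of groups, and those of sinusoidal endothelium for 3 and 4 of 7, with 1 higher in each genotype. Of all genes 20.8% were lower in fl/fl and 17.5% in PparaΔHep mice. No marker stood at 0, and whether these cells took part in the members' differences was not tested. In whole liver, fewer cells of a type and less RNA per cell cannot be told apart. Ppara itself had a level of 6.81 ± 0.26 in sham fl/fl, 6.49 ± 0.74 in PHx fl/fl, 6.30 ± 0.18 in sham PparaΔHep and 5.32 ± 0.67 in PHx PparaΔHep livers (SD, n = 4), and the genotypes did not pass the threshold after sham (adjusted p = 0.681) or PHx (adjusted p = 0.326). No file says whether its probes lie in the deleted stretch, so Ppara is a weak check of the genotype. Cyp4a14, a known PPARα target, had 7.48 ± 1.51, 8.77 ± 1.92, 3.29 ± 1.09 and 4.32 ± 2.23 in the same order (SD, n = 4), and did not pass between genotypes either (adjusted p = 0.383 and 0.214).

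The promoters of these genes were searched for motifs of known regulators of respiratory genes. RefSeq promoter sequences (GRCm38.p6, 250 bases before to 50 after the start) were found for 74 of the 91 genes and for 17492 protein-coding genes in all. Motifs were counted on both strands, each on its own whether or not it overlapped another. A gene could have more than 1 promoter sequence (21263 in all), and it was counted if any of them held the motif. The motif of NRF1 (GCGCA, any base, then GCGC), a factor known for its sites in respiratory genes, occurred in 16 of the 74 genes (21.6%) and in 7.17% of all 17492 genes. The ETS motif bound by GABP (CCGGAAG) occurred in 18 (24.3%) and in 12.9% of all. The YY1 motif (AAGATGGCG) occurred in 8 (10.8%) and in 2.14% of all, and the motif of the estrogen-related receptors (TCAAGGTCA) in 2 (2.7%) and in 0.377%. The direct repeat bound by PPARα with its partner RXR (AGGTCA repeated after 1 base of any kind) occurred in 0 of the 74 genes and in 0.0572% of all. A TATA box (TATAAA) occurred in 8 (10.8%) and in 14.8% of all. Matches are letters in a window and say nothing of binding. Among the 42 members with a promoter that were lower in at least 1 genotype, 4 held the NRF1 motif and 7 the YY1 motif, and among the other 32 members 12 and 1 did. The ETS motif was held by 8 of the 42 and 10 of the 32, and the TATA box by 4 and 4. The motif of the estrogen-related receptors was held by 0 and 2, and the PPARα repeat by 0 and 0. These splits were not tested, and they rest on calls that depend on how the arrays are scaled.

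Promoters of 3 members are shown as examples of these motifs: Sdha (complex II) and Atp5e (complex V), which were lower after PHx in both genotypes, and Cox6a1 (complex IV), which was lower in neither. Each run gives the 250 bases before the start on the gene's strand, 5′ to 3′, at chr13:74350241-74350490 (minus strand) for Sdha, chr2:174464102-174464351 (minus strand) for Atp5e and chr5:115348959-115349208 (minus strand) for Cox6a1 in GRCm38.p6. Capitals mark the motif matches: 3 of NRF1 in Sdha, 1 of ETS in Atp5e, and 2 of NRF1 and 1 of ETS in Cox6a1.
Sdha: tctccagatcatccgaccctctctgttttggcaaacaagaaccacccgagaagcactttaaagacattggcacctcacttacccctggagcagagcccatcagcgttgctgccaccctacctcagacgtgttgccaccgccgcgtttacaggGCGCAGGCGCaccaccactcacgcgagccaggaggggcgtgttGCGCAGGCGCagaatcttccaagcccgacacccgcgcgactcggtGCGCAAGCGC
Atp5e: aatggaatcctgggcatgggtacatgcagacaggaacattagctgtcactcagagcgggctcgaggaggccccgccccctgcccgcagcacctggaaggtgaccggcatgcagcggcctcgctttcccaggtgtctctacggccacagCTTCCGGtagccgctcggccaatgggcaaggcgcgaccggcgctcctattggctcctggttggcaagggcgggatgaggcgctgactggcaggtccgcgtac
Cox6a1: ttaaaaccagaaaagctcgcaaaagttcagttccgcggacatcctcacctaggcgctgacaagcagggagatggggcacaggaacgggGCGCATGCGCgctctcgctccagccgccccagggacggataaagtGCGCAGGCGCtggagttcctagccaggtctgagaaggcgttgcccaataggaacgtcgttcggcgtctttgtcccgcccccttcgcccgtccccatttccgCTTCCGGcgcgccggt

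Complex I, the NADH dehydrogenase, has the most members. In fl/fl mice 18 of its 36 genes fell and 0 rose, with a median difference of −0.22 and a range of −0.57 to 0.12. In PparaΔHep mice 19 fell and 0 rose, with a median of −0.24 and a range of −0.75 to 0.09. The shares lower were 50% and 52.8%, beside 20.8% and 17.5% of all genes. Among genes with a mean level of at least 4 the shares were 36.1% and 39.8%. After cyclic loess 6 were lower in fl/fl and 11 in PparaΔHep mice, and leaving out 1 array gave 12 (without array 2 of PHx fl/fl) to 25 (without array 4 of PHx fl/fl) in fl/fl mice. Of the 6 core subunits, which do the catalysis, 3 fell in fl/fl and 4 in PparaΔHep mice, and of the 27 accessory subunits 12 and 14 did. The 3 genes left are Ndufa4, its paralog Ndufa4l2 and Ndufb4b, a near copy of Ndufb4 whose probes may read both, and of these 3 and 1 fell.

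Ndufs8 encodes a core subunit that carries iron-sulphur clusters on the way to ubiquinone. Its levels were 7.87, 7.88, 7.998 and 8.07 after sham and 7.37, 7.32, 7.46 and 7.58 after PHx in fl/fl mice, and 7.91, 7.79, 8.06 and 7.95 after sham and 7.48, 7.50, 7.15 and 7.24 after PHx in PparaΔHep mice. Every PHx array lay below every sham array of its genotype. It fell to 0.697 of the sham level in fl/fl mice (log2 difference −0.52, SE 0.09, adjusted p = 0.000447) and to 0.667 in PparaΔHep mice (log2 difference −0.58, SE 0.09, adjusted p = 0.000155).

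Ndufs7 holds the last iron-sulphur cluster before ubiquinone and had the largest fall of any member in PparaΔHep mice. Its levels were 7.12, 6.99, 7.04 and 7.13 after sham and 6.68, 6.63, 6.42 and 6.66 after PHx in fl/fl mice, and 6.99, 7.01, 7.23 and 7.23 after sham and 6.81, 6.26, 6.28 and 6.13 after PHx in PparaΔHep mice. The groups did not overlap in either genotype, although array 1 of PHx PparaΔHep was higher than the others of its group. It fell in fl/fl (log2 difference −0.47, SE 0.12, adjusted p = 0.00756) and in PparaΔHep mice (log2 difference −0.75, SE 0.12, adjusted p = 0.000263).

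Ndufv1 binds NADH and the flavin where electrons enter. Its levels were 6.16, 6.24, 6.13 and 6.23 after sham and 5.79, 5.83, 5.93 and 6.17 after PHx in fl/fl mice, and 6.14, 6.18, 6.28 and 6.27 after sham and 5.89, 5.94, 5.70 and 5.82 after PHx in PparaΔHep mice. It fell in fl/fl (−0.26, adjusted p = 0.0174) and in PparaΔHep mice (−0.38, adjusted p = 0.00146), with array 4 of PHx fl/fl within the sham range. Ndufv2, its partner subunit, had a difference of −0.30, adjusted p = 0.056, in fl/fl mice and fell in PparaΔHep mice (−0.31, adjusted p = 0.0446). That Ndufv2 call was lost in 9 of 19 alternative runs of the test, 7 of which left out 1 array. For Ndufs1, the largest core subunit, the differences were −0.30, adjusted p = 0.128, and −0.38, adjusted p = 0.0574, and for Ndufs3 they were −0.02, adjusted p = 0.831, and −0.08, adjusted p = 0.428, in fl/fl and PparaΔHep mice. Core subunits of the same arm thus had differences of unlike size.

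Among the accessory subunits Ndufa2 had the most negative difference in fl/fl mice. Its levels were 6.76, 6.63, 6.80 and 6.87 after sham and 6.25, 5.97, 5.95 and 6.59 after PHx in fl/fl mice, and 6.52, 6.57, 6.84 and 6.97 after sham and 6.19, 6.50, 5.81 and 5.75 after PHx in PparaΔHep mice. All PHx arrays were below the sham arrays of their genotype, and the PHx arrays were also the most spread. It fell in fl/fl (log2 difference −0.57, SE 0.17, adjusted p = 0.0168) and in PparaΔHep mice (log2 difference −0.66, SE 0.17, adjusted p = 0.0072). Ndufb11, a membrane-arm subunit, fell in both genotypes (−0.42, adjusted p = 0.0203; −0.60, adjusted p = 0.00239). Ndufv3, a small subunit beside the flavin site, fell in both as well (−0.37, adjusted p = 0.001; −0.46, adjusted p = 0.000153). Smaller falls in both genotypes were measured for Ndufb9 (−0.21, adjusted p = 0.00636; −0.24, adjusted p = 0.00208) and for Ndufab1, the acyl carrier protein of mitochondria (−0.15, adjusted p = 0.0336; −0.20, adjusted p = 0.00568). The Ndufab1 call was lost in 8 of 19 alternative runs in fl/fl mice and in 1 of 19 in PparaΔHep mice. Ndufa4, which is now assigned to complex IV, fell in fl/fl mice (−0.23, adjusted p = 0.0226) and had a difference of −0.16, adjusted p = 0.0932, in PparaΔHep mice.

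The assembly factors of complex I, which build the complex but are not part of it, fell for 4 of 7 genes in each genotype, with medians of −0.25 and −0.36. That was 57.1%, beside 20.8% of all genes in fl/fl and 17.5% in PparaΔHep mice. Of genes with a mean level of at least 4 it was 36.1% and 39.8%. Ndufaf1 takes part in joining the membrane arm. Its levels were 5.36, 5.58, 5.46 and 5.56 after sham and 5.05, 5.08, 4.54 and 5.17 after PHx in fl/fl mice, and 5.44, 5.38, 5.40 and 5.69 after sham and 5.07, 5.12, 4.76 and 4.84 after PHx in PparaΔHep mice. No PHx array reached a sham array of its genotype, and the gene fell in fl/fl (log2 difference −0.53, SE 0.12, adjusted p = 0.00485) and in PparaΔHep mice (log2 difference −0.53, SE 0.12, adjusted p = 0.00451). Ndufaf3 (−0.41, adjusted p = 0.0217; −0.58, adjusted p = 0.00287) and Ndufaf6 (−0.45, adjusted p = 0.00229; −0.41, adjusted p = 0.00362) also fell in fl/fl and PparaΔHep mice. Dmac2 fell too (−0.28, adjusted p = 0.0264; −0.38, adjusted p = 0.0051). Ndufaf4 differed from these, with levels of 5.20, 5.34, 4.92 and 5.22 after sham and 5.36, 5.56, 5.04 and 6.01 after PHx in fl/fl mice, and 5.22, 5.02, 5.10 and 5.48 after sham and 4.89, 5.32, 5.18 and 4.74 after PHx in PparaΔHep mice. Its arrays overlapped in both genotypes, and its differences of 0.32, adjusted p = 0.182, and −0.17, adjusted p = 0.493, did not pass the threshold.

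**Figure D3:**
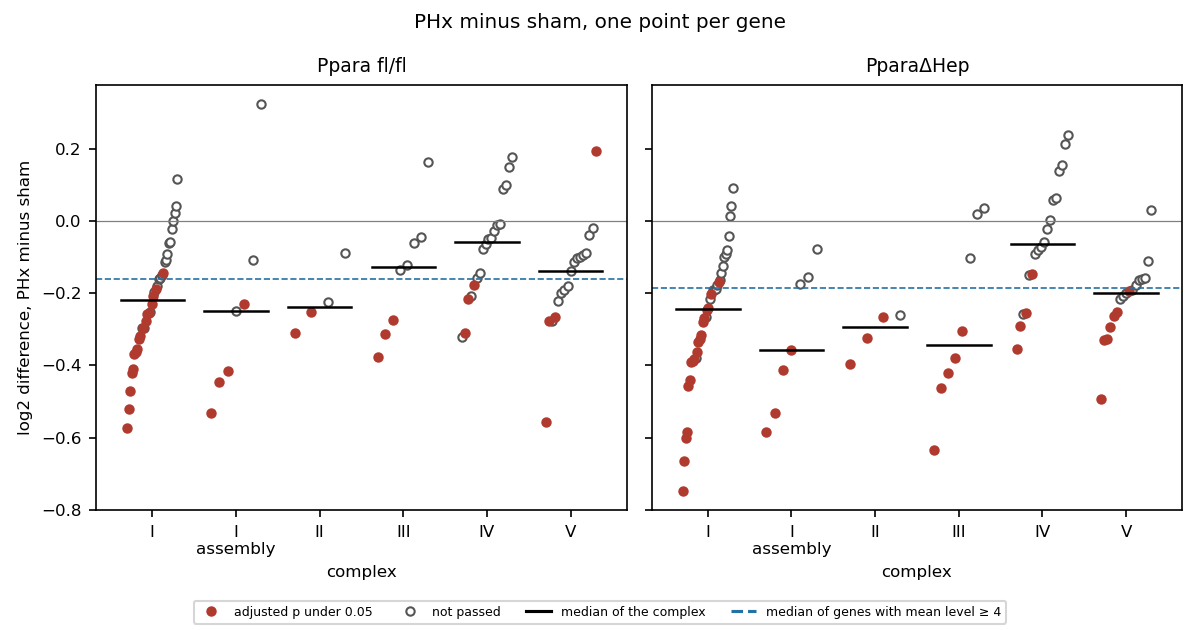
Log2 difference PHx minus sham (y axis) of each of the 91 genes by complex (x axis) for fl/fl and PparaΔHep mice, with red points for an adjusted p under 0.05, black lines for the median of the complex and a dashed line for the median of genes with a mean level of at least 4 (−0.16 and −0.19). The median of complex IV is −0.06 in fl/fl and −0.07 in PparaΔHep mice, and that of complex I is −0.22 and −0.24.

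Complex II, succinate dehydrogenase, also belongs to the citrate cycle and has only nuclear subunits. All 4 differences were negative in both genotypes, with medians of −0.24 and −0.29, and 2 genes fell in fl/fl and 3 in PparaΔHep mice. Over all genes 20.8% and 17.5% were lower, and of genes with a mean level of at least 4, 36.1% and 39.8% were. Sdha is the flavoprotein that oxidises succinate. Its levels were 7.18, 7.40, 7.15 and 7.25 after sham and 6.997, 6.97, 6.85 and 7.15 after PHx in fl/fl mice, and 7.10, 7.23, 7.30 and 7.23 after sham and 6.90, 6.85, 6.60 and 6.94 after PHx in PparaΔHep mice. The groups did not overlap in PparaΔHep mice, while in fl/fl mice the highest PHx array equalled the lowest sham array to 2 decimals. Sdha fell in fl/fl (log2 difference −0.25, SE 0.08, adjusted p = 0.0285) and in PparaΔHep mice (log2 difference −0.40, SE 0.08, adjusted p = 0.00204). The call in fl/fl mice was lost after cyclic loess, as was that of Sdhb, and 0 of the 4 genes were lower there in fl/fl mice.

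Sdhb carries the iron-sulphur clusters of complex II. Its levels were 6.85, 6.93, 6.84 and 6.81 after sham and 6.31, 6.53, 6.55 and 6.81 after PHx in fl/fl mice, and 6.79, 6.83, 6.87 and 6.73 after sham and 6.57, 6.58, 6.37 and 6.64 after PHx in PparaΔHep mice. Array 4 of PHx fl/fl equalled the lowest sham fl/fl array to 2 decimals, and the other PHx arrays of both genotypes lay below their sham arrays. It fell in fl/fl (−0.31, adjusted p = 0.0121) and PparaΔHep mice (−0.27, adjusted p = 0.0265). The membrane anchors differed in their calls, as Sdhc had a difference of −0.23, adjusted p = 0.0627, in fl/fl mice and fell in PparaΔHep mice (−0.32, adjusted p = 0.0114), whereas Sdhd passed in neither (−0.09, adjusted p = 0.666; −0.26, adjusted p = 0.18).

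Complex III, ubiquinol-cytochrome c reductase, had 3 of 8 genes lower in fl/fl mice (median −0.13) and 5 of 8 in PparaΔHep mice (median −0.34). The shares lower were 37.5% and 62.5%, beside 20.8% and 17.5% of all genes. Among genes with a mean level of at least 4 the shares were 36.1% and 39.8%. After cyclic loess 0 of 8 were lower in fl/fl mice, with Uqcrh higher (0.28, adjusted p = 0.0278), and 3 of 8 were lower in PparaΔHep mice. The fl/fl median ran from −0.23 without array 4 of PHx fl/fl to −0.06 without array 3 of that group. Uqcrc1, a core subunit of the matrix side, had levels of 7.18, 7.13, 7.14 and 7.32 after sham and 6.83, 6.82, 6.94 and 7.08 after PHx in fl/fl mice, and 7.14, 7.37, 7.39 and 7.47 after sham and 6.76, 6.66, 6.61 and 6.81 after PHx in PparaΔHep mice. PHx arrays lay below sham arrays in both genotypes, and the PHx PparaΔHep arrays were the lowest of all. It fell to 0.644 of the sham level in PparaΔHep mice (log2 difference −0.63, SE 0.08, adjusted p = 2.13e-05), and in fl/fl mice the fall was smaller (log2 difference −0.28, SE 0.08, adjusted p = 0.0137). The difference between these falls was −0.36 (95% interval −0.59 to −0.13), which did not pass after adjustment (adjusted p = 0.327).

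Small subunits of complex III fell in both genotypes for Uqcr11 (−0.38, adjusted p = 0.0112; −0.38, adjusted p = 0.01) and Uqcrq (−0.31, adjusted p = 0.00952; −0.42, adjusted p = 0.00127). Uqcr10 fell in PparaΔHep mice (−0.46, adjusted p = 0.00491) and had a difference of −0.14, adjusted p = 0.366, in fl/fl mice. The Rieske iron-sulphur protein Uqcrfs1, which takes the electron from ubiquinol, fell in PparaΔHep mice (−0.30, adjusted p = 0.0279) and had a difference of −0.12, adjusted p = 0.362, in fl/fl mice. Uqcrc2, the other core subunit, passed in neither (−0.05, adjusted p = 0.622; −0.10, adjusted p = 0.25). Cyc1, the cytochrome c1 of this complex, has a symbol outside the member rule and fell in both (−0.33, adjusted p = 0.00195; −0.45, adjusted p = 0.000148).

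Complex IV, cytochrome c oxidase, had 3 of 18 genes lower in fl/fl mice (median −0.06) and 4 of 18 in PparaΔHep mice (median −0.07). These shares, 16.7% and 22.2%, were near those over all genes, 20.8% and 17.5%. They were below the 36.1% and 39.8% of genes with a mean level of at least 4. After cyclic loess 2 and 1 were lower and both medians were positive (0.01 and 0.06), and 1 was lower in PparaΔHep mice without array 3 or 4 of sham PparaΔHep or array 3 of PHx PparaΔHep. It has isoforms of most tissues and isoforms known from muscle, lung or testis. Of the 11 isoforms of most tissues, 1 (Cox7c) fell in fl/fl mice (−0.18, adjusted p = 0.0129), and Cox7c, Cox4i1, Cox5b and Cox7a2 fell in PparaΔHep mice. That was 9.09% and 36.4% of the 11. After cyclic loess all 5 of these calls were lost, with adjusted p = 0.427 for Cox7c in fl/fl mice and adjusted p = 0.977, 0.290, 0.221 and 0.170 for the 4 genes in PparaΔHep mice. Across the 19 alternatives the PparaΔHep call was lost in 9 for Cox7c, 1 for Cox4i1, 6 for Cox5b and 8 for Cox7a2. Cox4i1, the regulatory subunit that binds ATP, had a difference of −0.14, adjusted p = 0.116, in fl/fl and −0.26, adjusted p = 0.00929, in PparaΔHep mice.

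Cox5b, a subunit that binds zinc, had levels of 7.42, 7.24, 7.36 and 7.50 after sham and 7.24, 7.26, 7.41 and 7.50 after PHx in fl/fl mice, and 7.25, 7.43, 7.51 and 7.53 after sham and 7.31, 7.06, 6.95 and 7.24 after PHx in PparaΔHep mice. The fl/fl groups covered the same range, and in PparaΔHep mice 3 of 4 PHx arrays were below all sham arrays. It did not pass in fl/fl mice (log2 difference −0.03, SE 0.09, adjusted p = 0.839) and fell in PparaΔHep mice (log2 difference −0.29, SE 0.09, adjusted p = 0.0234). Cox7a2 had a difference of −0.32, adjusted p = 0.0587, in fl/fl mice and −0.35, adjusted p = 0.04, in PparaΔHep mice. Other subunits of most tissues passed in neither genotype, among them Cox5a (−0.08, adjusted p = 0.536; −0.08, adjusted p = 0.535), Cox6a1 (−0.05, adjusted p = 0.744; −0.26, adjusted p = 0.0756) and Cox8a (0.18, adjusted p = 0.268; 0.003, adjusted p = 0.988).

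The 7 isoforms of muscle, lung or testis had mean levels under 4, where the array's negative controls had medians of 1.81 to 2.12. Cox8b (−0.31, adjusted p = 0.00138) and Cox6b2 (−0.22, adjusted p = 0.00676) were lower in fl/fl mice, and 0 of 7 were lower in PparaΔHep mice. After cyclic loess Cox8b was also lower in PparaΔHep mice (−0.16, adjusted p = 0.0491). Of 5 markers of skeletal and cardiac muscle, 5 had a negative difference in fl/fl mice (median −0.11) and 0 in PparaΔHep mice (median 0.10), where Acta1 rose. The 7 isoforms had 6 and 2 negative differences (medians −0.05 and 0.14), where 0.585 and 0.484 of all genes had a difference at or below 0. The median difference between genotypes in the response was 0.18 for the isoforms and 0.22 for the muscle markers, beside 0.03 over all genes. It was also positive for markers of cholangiocytes (0.17), neutrophils (0.12), T and B cells (0.11) and hepatocytes (0.02), and for members with a mean level under 4 (0.11). It was −0.18 each for markers of Kupffer cells, sinusoidal endothelium and stellate cells. A positive median was thus not particular to muscle markers. On the arrays the muscle markers' mean level was 3.25 to 3.41 in sham fl/fl, 3.16 to 3.27 in PHx fl/fl, 3.12 to 3.27 in sham PparaΔHep and 3.28 to 3.42 in PHx PparaΔHep livers. The part of muscle cells in these differences was not tested. Cox7b2 was the 1 member whose PHx fl/fl arrays all lay above the sham fl/fl arrays, with a difference of 0.15, adjusted p = 0.249.

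Complex V, the ATP synthase, had 3 of 17 genes lower and 1 higher in fl/fl mice (median −0.14), and 7 lower and 0 higher in PparaΔHep mice (median −0.20). The shares lower were 17.6% and 41.2%, beside 20.8% and 17.5% of all genes. Among genes with a mean level of at least 4 the shares were 36.1% and 39.8%, so complex V showed no excess of falls in fl/fl mice. The F1 part, which makes ATP, has 4 genes among the members (Atp5a1, Atp5b, Atp5d and Atp5e), while Atp5c1, the gamma subunit, was not analysed here. Of these 4, 1 fell in fl/fl and 4 fell in PparaΔHep mice, where Atp5b (adjusted p = 0.0766) and Atp5d (adjusted p = 0.164) lost the call after cyclic loess. In PparaΔHep mice 4 genes of complex V were lower without array 3 of sham PparaΔHep, instead of 7. Without array 4 of PHx fl/fl, 9 genes of complex V were lower in fl/fl mice instead of 3.

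Atp5e, the small epsilon subunit of the rotor, had the largest fall in this complex. Its levels were 5.60, 5.34, 5.64 and 5.57 after sham and 4.71, 4.89, 5.22 and 5.11 after PHx in fl/fl mice, and 5.29, 5.25, 5.53 and 5.46 after sham and 4.85, 5.03, 4.81 and 4.87 after PHx in PparaΔHep mice. Every PHx array lay below every sham array of its genotype. It fell to 0.68 of the sham level in fl/fl mice (log2 difference −0.56, SE 0.10, adjusted p = 0.00108) and to 0.711 in PparaΔHep mice (log2 difference −0.49, SE 0.10, adjusted p = 0.00235).

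Atp5b encodes the catalytic beta subunit. Its levels were 7.96, 7.997, 7.87 and 7.94 after sham and 7.75, 7.77, 7.79 and 8.001 after PHx in fl/fl mice, and 7.89, 7.94, 7.97 and 7.91 after sham and 7.70, 7.64, 7.65 and 7.71 after PHx in PparaΔHep mice. Array 4 of PHx fl/fl lay just above all sham fl/fl arrays, and the other 3 were below all sham arrays. It did not pass in fl/fl mice (log2 difference −0.11, SE 0.05, adjusted p = 0.119) and fell in PparaΔHep mice (log2 difference −0.25, SE 0.05, adjusted p = 0.00227). Atp5a1, the alpha subunit, had a difference of −0.10, adjusted p = 0.24, in fl/fl mice and fell in PparaΔHep mice (−0.29, adjusted p = 0.00187), as did Atp5d, the delta subunit (−0.10, adjusted p = 0.457; −0.33, adjusted p = 0.0176). A dimmer probe set of Atp5d (mean level 2.39) gave −0.14 and 0.11. The Atp5d call in PparaΔHep mice was lost with the mean of the gene's probe sets. Atp5j, of the peripheral stalk that holds F1 still, fell in both (−0.28, adjusted p = 0.00233; −0.33, adjusted p = 0.00058).

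The c-ring, which turns as protons pass, is made of 1 protein encoded by 3 genes that share the mature peptide, and their calls differed. Such near copies share coding sequence, so a probe set may read more than 1 of them. Atp5g3 had levels of 7.10, 7.12, 7.11 and 7.19 after sham and 7.16, 7.34, 7.33 and 7.46 after PHx in fl/fl mice, and 7.03, 7.04, 7.19 and 7.07 after sham and 7.12, 7.04, 7.12 and 7.19 after PHx in PparaΔHep mice. The PHx fl/fl arrays were all at or above 7.16, while 1 sham fl/fl array stood at 7.19, and the PparaΔHep groups overlapped. It rose to 1.14 times the sham level in fl/fl mice (log2 difference 0.19, SE 0.06, adjusted p = 0.0213) and its difference in PparaΔHep mice was 0.03, adjusted p = 0.727. After quantile normalization the fl/fl difference was −0.0090, and it missed the threshold without array 1 or 3 of sham fl/fl, or without array 4 of PHx fl/fl. Atp5g1 had a difference of −0.19, adjusted p = 0.11, in fl/fl mice and fell in PparaΔHep mice (−0.26, adjusted p = 0.0336), and Atp5g2 passed in neither (−0.04, adjusted p = 0.789; −0.19, adjusted p = 0.15). Among other membrane subunits Atp5md fell in fl/fl mice (−0.27, adjusted p = 0.0417), a call lost in 8 of 19 alternative runs. Its difference in PparaΔHep mice was −0.18, adjusted p = 0.168. Atp5l was read by a probe set named for a chromosome other than its own (−0.28, adjusted p = 0.0761; −0.22, adjusted p = 0.164), and the brighter probe set of its own chromosome gave −0.02 and −0.11.

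**Figure D4:**
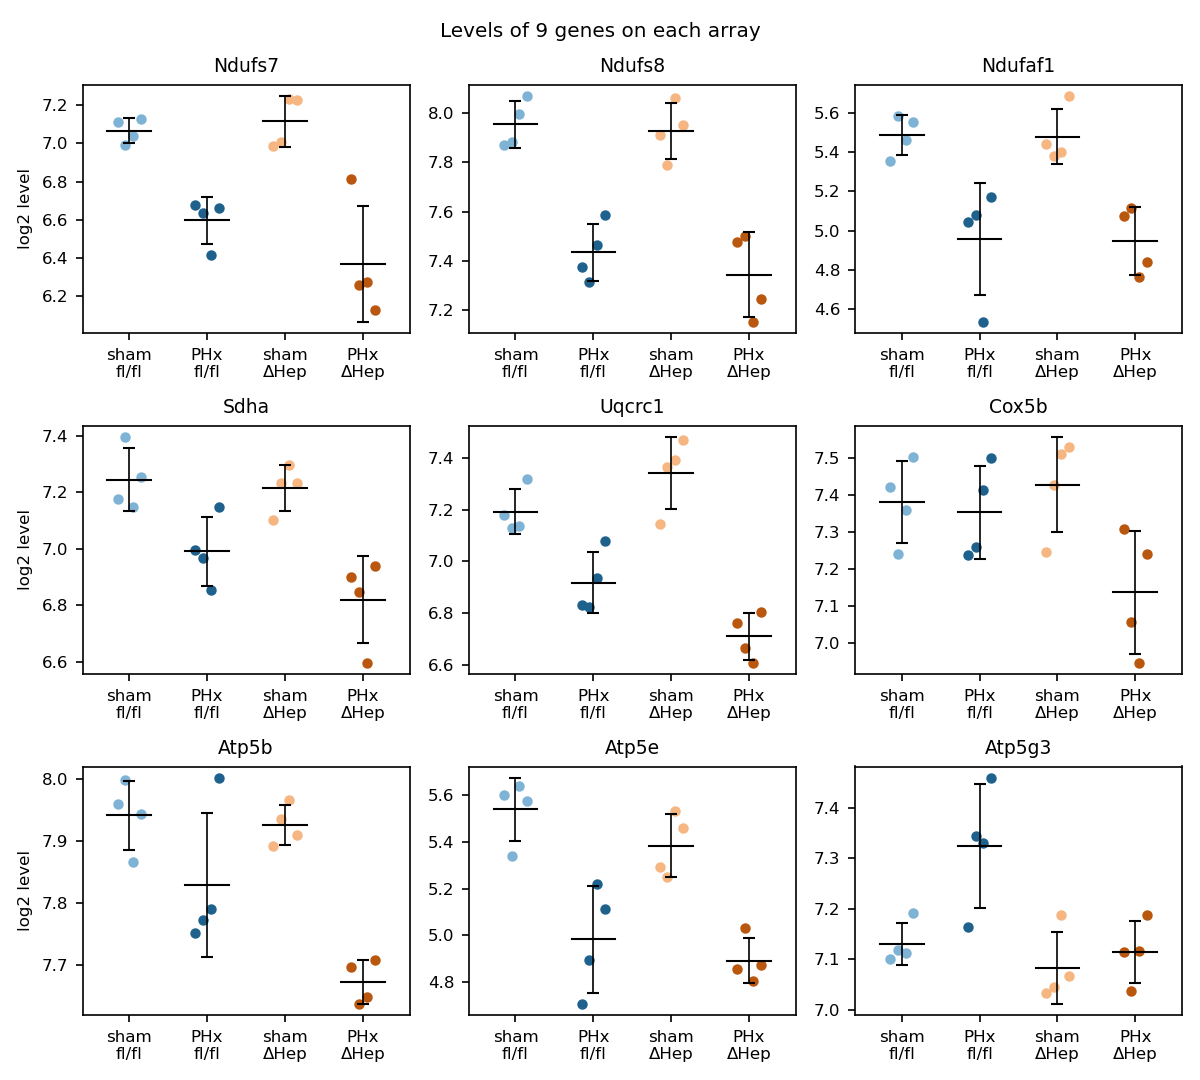
Log2 level (y axis) of 9 members on each of the 16 arrays, by group (x axis), with dots for arrays and lines for group means. PHx arrays of Ndufs8 and Atp5e lie below all sham arrays of their genotype, and those of Atp5g3 in fl/fl mice lie between 7.16 and 7.46, beside 7.10 to 7.19 after sham.

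The falls of the 2 genotypes overlapped, with 27 genes lower in both. That is 79.4% of the 34 that fell in fl/fl mice and 62.8% of the 43 in PparaΔHep mice. A further 7 passed in fl/fl mice alone and 16 in PparaΔHep mice alone. The difference was negative in both genotypes for 74 of 91 genes, and it was more negative in PparaΔHep mice for 59. These overlaps were not counted over all genes. The share of differences at or below 0 was 0.879 in fl/fl and 0.857 in PparaΔHep mice for members. It was 0.585 and 0.484 for all genes, and 0.730 and 0.745 for genes with a mean level of at least 4. Both tests use 1 spread per gene from all 16 arrays, and the shifts of the positive controls given above occurred in both genotypes. When the difference between the falls was tested directly with limma, 0 of 91 members and 0 of all 30142 genes (0%) passed. Unadjusted p was under 0.05 for 4 members, a count not made over all genes. The median of these differences over members was −0.05 (0.03 over all genes), and the median half-width of the 95% intervals was 0.266. The members with the smallest p were Cox6b2 (0.28, adjusted p = 0.327), Uqcrc1 (−0.36, adjusted p = 0.327) and Cox8b (0.22, adjusted p = 0.371). The most negative was Ndufaf4 (−0.50), whose interval of −1.04 to 0.04 spans 0. Genes that passed in 1 genotype only were thus not shown to respond differently, and the width of the intervals does not show that the genotypes are alike.

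**Figure D5:**
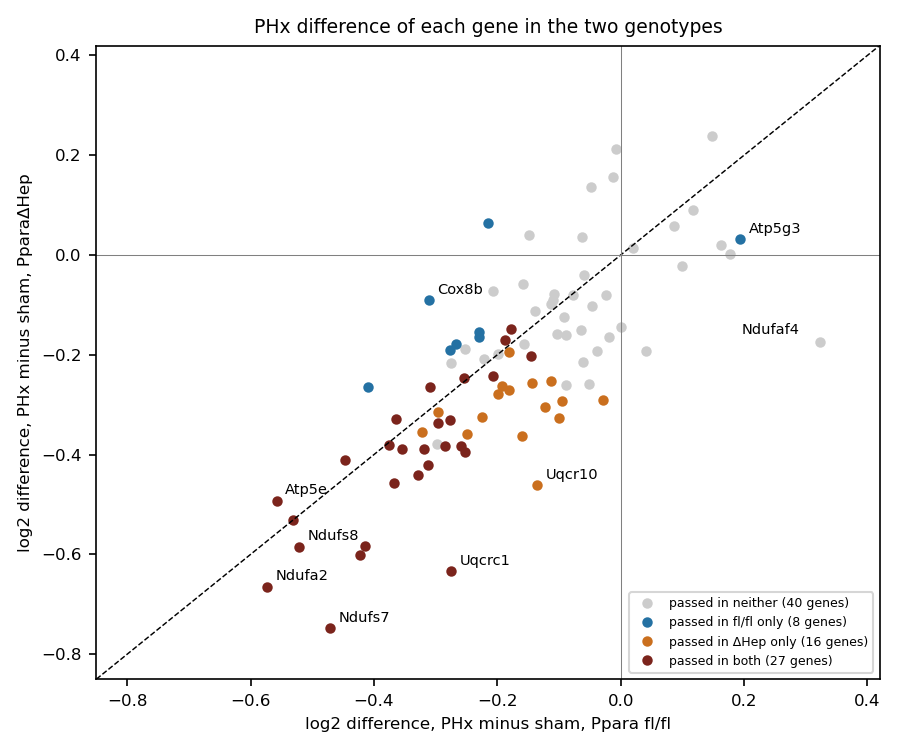
Log2 difference PHx minus sham in PparaΔHep mice (y axis) against that in fl/fl mice (x axis) for the 91 genes, coloured by the genotype in which they passed an adjusted p under 0.05 (27 in both, 16 in PparaΔHep alone, 8 in fl/fl alone including the rise of Atp5g3, 40 in neither). Of the 91 genes, 74 had negative differences in both genotypes and lie to the lower left of 0.

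Between genotypes after the same operation no member passed. After sham 0 of 91 were lower or higher, where 0.00995% and 0.00332% of all genes were, and 2 members had an unadjusted p under 0.05. The differences ran from −0.19 to 0.15 with a median of −0.03 (−0.02 over all genes). Cox6b2 (−0.15, adjusted p = 0.447), Uqcrb (−0.19, adjusted p = 0.515) and Ndufaf5 (−0.12, adjusted p = 0.551) had the smallest p. The PparaΔHep arrays lay below all fl/fl arrays for 3 members, Ndufa5, Ndufv2 and Uqcrb (4.43% of all genes), and above them for 0 (2.38%). After PHx 0 of 91 passed, where 0.143% of all genes were lower and 0 were higher, and 15 members had an unadjusted p under 0.05. The differences ran from −0.46 (Ndufaf4) to 0.25 (Cox8b) with a median of −0.09 (0.01 over all genes), and 76 of 91 were negative. Neither the unadjusted p under 0.05 nor the negative differences were counted over all genes, so these counts have no background beside them. The PHx PparaΔHep arrays lay below all PHx fl/fl arrays for Ndufb3, Uqcrc1, Atp5a1 and Atp5b (1.31% of all genes did so), and above them for Cox8b (2.41%). The smallest p were those of Cox8b (0.25, adjusted p = 0.199), Atp5a1 (−0.22, adjusted p = 0.295) and Atp5g3 (−0.21, adjusted p = 0.317). These comparisons share arrays with the PHx comparisons above, so their signs are not separate evidence. The median half-width of their 95% intervals was 0.188.

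Other genes of mitochondrial energy metabolism were read from lists of the neighbouring processes. Beside the counts below, 20.8% of all genes were lower in fl/fl and 17.5% in PparaΔHep mice. Among genes with a mean level of at least 4 the shares were 36.1% and 39.8%. Of 5 subunits encoded in mitochondrial DNA, ND3 (−0.25, adjusted p = 0.00972) and ND6 (−0.34, adjusted p = 0.00304), both of complex I, fell in fl/fl mice. In PparaΔHep mice ND6 fell (−0.25, adjusted p = 0.0173) and COX1, the catalytic subunit of complex IV, rose (0.22, adjusted p = 0.0458). Neither call held when single arrays were left out. Without array 4 of PHx PparaΔHep 0 of the 5 were lower, and without array 1 of sham PparaΔHep 0 were higher. Of 37 assembly factors, Dmac2 among them, 15 fell and 1 rose in fl/fl (40.5% lower) and 20 fell in PparaΔHep mice (54.1%). Their medians were −0.21 and −0.32. The largest falls were those of Surf1, needed to build complex IV (−0.95, adjusted p = 0.00037; −0.93, adjusted p = 0.000365), and Tmem126b, needed for complex I (−0.90, adjusted p = 0.00626; −1.01, adjusted p = 0.00265). Of 79 genes of the mitochondrial ribosome, 36 fell and 1 rose in fl/fl (45.6% lower) and 50 fell in PparaΔHep mice (63.3%). Their medians were −0.19 and −0.25.

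Among 18 genes of electron carriers and ubiquinone synthesis 7 fell and 3 rose in fl/fl mice, and 8 fell and 3 rose in PparaΔHep mice. The shares lower, 38.9% and 44.4%, were near the 36.1% and 39.8% of genes with a mean level of at least 4. Coq8a and Coq8b, related kinases of ubiquinone synthesis, went opposite ways: Coq8a fell (−2.26, adjusted p = 3.13e-07; −1.96, adjusted p = 1.57e-06) and Coq8b rose (1.39, adjusted p = 0.00683; 1.35, adjusted p = 0.008). Cycs, cytochrome c, passed in neither (0.02, adjusted p = 0.941; 0.18, adjusted p = 0.338). Of 18 genes of the citrate cycle 2 fell and 4 rose in fl/fl mice, and 7 fell and 2 rose in PparaΔHep mice, where all genes gave 20.8% and 11.9%, and 17.5% and 14.8%. Without array 3 of sham PparaΔHep 1 citrate cycle gene fell in PparaΔHep mice, and in fl/fl mice leaving out 1 array gave 1 (without array 1 or 4 of sham fl/fl or array 2 of PHx fl/fl) to 4 (without array 4 of PHx fl/fl). After cyclic loess 0 citrate cycle genes were lower in either genotype, and 7 and 3 were higher. Fh1, fumarase, rose in both (1.02, adjusted p = 0.000104; 0.74, adjusted p = 0.00123), whereas its neighbours in the cycle Sdha and Sdhb fell.

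Of 16 regulators of mitochondrial genes, 6 fell and 1 rose in fl/fl mice, and 7 fell and 0 rose in PparaΔHep mice. The shares lower, 37.5% and 43.8%, were near the 36.1% and 39.8% of genes with a mean level of at least 4. After cyclic loess 1 and 3 regulators were lower in fl/fl and PparaΔHep mice, as were 14 and 24 genes of the mitochondrial ribosome and 8 and 15 assembly factors. Ppargc1a, the coactivator that raises mitochondrial genes, was the one that rose in fl/fl mice (1.83, adjusted p = 0.00574), and its difference in PparaΔHep mice was 0.65, adjusted p = 0.278 (difference between the genotypes −1.18, adjusted p = 0.499). Tfam, which packs and transcribes mitochondrial DNA, fell in both (−0.33, adjusted p = 0.0125; −0.33, adjusted p = 0.0105). Nrf1 (0.14, adjusted p = 0.183; 0.09, adjusted p = 0.399) and Gabpa (−0.06, adjusted p = 0.627; −0.11, adjusted p = 0.342), whose motifs were counted above, passed in neither, and Yy1 fell in both (−0.38, adjusted p = 0.00249; −0.35, adjusted p = 0.00398).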

How the data were processed

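Values were analysed from 16 Affymetrix arrays of mouse liver. The authors deposited log2 values of 72688 probe sets, for which the submitters' processing notes name RMA; its software, settings and genome build were not given in the sources used here. Per the labels' protocols, total RNA was taken with Trizol and the cDNA carried biotin. RMA often includes a quantile step that gives arrays one distribution, but the deposited medians differed between operations, so the counts were also made under other scalings. Values ran from 0.0720 to 12.1.

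Of the probe sets 30604 had 1 gene symbol, 2146 had several and 39938 had none listed. The probe set with the highest mean represented each of 30142 genes; 88 of the 91 members had 1 probe set. The one chosen for Atp5l is named for a chromosome other than the gene's. In limma 3.58.1 (R 4.3.3) each group had a mean (12 residual degrees of freedom, 5 comparisons), with Benjamini-Hochberg adjustment over all genes. The same steps were tested on simulated data for the PHx comparison in fl/fl mice over 30142 genes: 51 of 100 genes changed by 0.5 and 88 of 100 changed by 1 were recovered. There were 6 false calls. The simulation changed far fewer genes than were called in the real comparison and held no shift between arrays, so its rates need not hold here. The number of arrays limits the precision. Differences were also computed with other normalizations, filters, probe choices, symbols and weights, and without each array in turn. Named genes were key subunits, the 3 with the largest passing differences in each complex and PHx comparison, members that rose, and those with the smallest p between genotypes. Members and lists were chosen with earlier results of these data known. Arrays are numbered within groups in accession order, so the numbers pair nothing.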

Additional observations from a re-analysis of the deposited data

Results flagged for a closer look

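In 14 of the 364 sets of 4 arrays formed by a member and a group, 1 array stood apart from the other 3 by Dixon's test at its 95% critical value; chance alone marks about 1 in 20 such sets. Of the 14, 4 were on array 4 of PHx fl/fl, which was the highest of its group each time: Ndufs4 at 6.27 (the others 5.85 to 5.90), Ndufs5 at 5.26 (4.91 to 4.97), Atp5b at 8.001 (7.75 to 7.79) and Atp5a1 at 8.68 (8.46 to 8.49). In the same group Cox7b was low on array 1, at 6.94 (7.17 to 7.21), and Sdhc and Ndufs7 were low on array 3, at 6.24 (6.43 to 6.45) and 6.42 (6.63 to 6.68). On array 3 of PHx PparaΔHep, Ndufb10 was low at 4.21 (4.50 to 4.52) and Atp5pb at 6.39 (6.58 to 6.61). Among sham arrays, Cox6a2 on array 4 of fl/fl was low at 2.62 (2.85 to 2.87) and Ndufv2 there was high at 6.55 (6.37 to 6.40). In sham PparaΔHep, Cox4i2 was low on array 3 at 2.82 (3.21 to 3.23), Uqcrc2 was low on array 1 at 7.66 (7.76 to 7.77), and Ndufa6 was high on array 4 at 6.84, beside 6.81 on the others.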

How the results depend on the processing

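The scaling of the arrays moved the counts most. In fl/fl mice 34 members were lower with the deposited values, 12 after cyclic loess, 60 after subtraction of array medians and 64 after quantile normalization, where 16.6%, 43.6% and 43% of all genes were lower. In PparaΔHep mice 43 became 24, 74 and 65, beside 14.8%, 43.8% and 34.9% of all genes. Array medians and quantile normalization shifted the median of all genes by −0.107 and −0.104 in fl/fl and by −0.150 and −0.109 in PparaΔHep mice. The members' median reached −0.32 under quantile normalization in fl/fl and −0.36 with array medians in PparaΔHep mice, and was −0.06 and −0.13 after cyclic loess. All 12 genes lower after cyclic loess in fl/fl mice, and 21 of the 24 in PparaΔHep mice, were also lower as deposited. The count of higher members in fl/fl mice was 3 after cyclic loess (Atp5g3, Cox7b and Uqcrh) and 0 with array medians, quantile normalization or only the arrays compared, and in PparaΔHep mice it was 1 with array weights. The one reversal was Atp5g3 in fl/fl mice under quantile normalization, at −0.0090 (adjusted p = 0.900). Calls of 16 named genes in fl/fl and 15 in PparaΔHep mice were lost after cyclic loess. Leaving out 1 array gave 26 to 51 lower and 0 to 2 higher in fl/fl mice and 33 to 42 lower and 0 to 1 higher in PparaΔHep mice, with medians of −0.23 to −0.14 and −0.24 to −0.20. Medians between genotypes ran from −0.05 to −0.00017 after sham and from −0.11 to −0.02 after PHx, and no count of members between genotypes left 0 under any alternative run. Of the named genes that fell or rose as deposited, 7 of 24 in fl/fl and 16 of 31 in PparaΔHep mice kept their call in every alternative. With Atp5l read by a probe set of its own chromosome, chosen after seeing the data, the counts stayed 34 and 43. The causes of these changes were not tested. No paired analysis was possible because the labels share no replicate numbers across groups.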
